A study of Rattus norvegicus with 10 samples.

Results

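In RCS cells, a line grown from a rat chondrosarcoma, 2115 of 19355 SOX6 peaks (10.9%, 95% Wilson interval 10.5% to 11.4%) shared no base with any SOX9, H3K27ac, H3K4me1, H3K4me3 or H3K9me3 peak. These SOX6-only unmarked sites are described here, out of 252939 peaks deposited for the series. Sites bound by SOX6 and SOX9 and the histone marks were mapped by chromatin immunoprecipitation with sequencing (ChIP-seq), with 1 library for each of the 6 antibodies and 4 input libraries sequenced without an antibody. One input belongs to each of SOX9, SOX6 and H3K27ac, and the fourth serves H3K4me1, H3K4me3 and H3K9me3. The labels name no treatment and no genetic change, so every library is of the same untreated line as far as they say. The overlaps chose the sites, and no antibody has a second library, so replicate error is unknown. Differences are given as a description, with no test, and the intervals cover counting error only and treat neighbouring peaks as independent.

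SOX6 belongs to the SoxD group of transcription factors, which bind DNA through an HMG box and have no known activation domain of their own. In cartilage it acts beside SOX5 and SOX9, the factor that commits cells to the chondrocyte lineage. Acetylation of histone H3 at lysine 27 is found at active promoters and enhancers. Methylation at lysine 4 separates enhancers, rich in H3K4me1, from promoters, rich in H3K4me3, and H3K9me3 is typical of silent heterochromatin. The first 3 are called active marks here, although H3K4me1 also lies at enhancers that are not in use. A site without a peak in these lists is not a site without the mark, since signal below the lowest deposited score, about 50 in each list, was not listed.

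With the lists applied in turn, starting with SOX9 and then H3K27ac, most SOX6 peaks left the set at these steps. A peak that met several lists was counted at the first of them, so the counts per step depend on this order. Removing peaks that met SOX9 left 10812, and removing those with H3K27ac left 4163. H3K4me1 took away 1785 more, H3K4me3 another 114 and H3K9me3 the last 149. Of the SOX6 peaks outside the set, 1609 met H3K4me1 and no other list, 149 only H3K9me3, 133 only H3K27ac, 112 only H3K4me3 and 74 only SOX9. In the SOX9 list 1630 of 14782 peaks (11.0%, 10.5% to 11.5%) formed the corresponding class, which met neither SOX6 nor any mark.

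Few sites stood within 100 bp of the edge of the rule, though 334 lay 1000 bp or less from another list. Gaps of 100 bp or less to another list occurred at 36 of the 2115 sites, and 63 SOX6 peaks were left out for 100 bp or less of overlap. The 5 sites just inside, in coordinates of the rat build rn5 used throughout, lay 2 bp from an H3K4me1 peak (chr2:107860028-107860191), 5 bp from H3K9me3 (chr7:14272911-14273523), 9 bp from H3K4me1 (chr5:176513775-176514094), 11 bp from H3K27ac (chrX:138195850-138196173) and 14 bp from H3K9me3 (chr6:143893493-143893695). The 5 peaks just outside overlapped another list by 5 to 8 bp. Of these, 4 met H3K4me1, on chromosome 8 at 74927816, chromosome 3 at 101605684, chromosome 9 at 61008851 and chromosome 5 at 145217000, and the peak on chromosome 2 at 79341613 met H3K27ac.

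The unmarked sites were among the weakest and narrowest SOX6 peaks. Each peak carries a score that the authors deposited, on a scale that no source used here states, and it is used only to order peaks within their own list. The sites had a median score of 58.7 (quartiles 53.2 and 72.6), against 116 (70.6 and 244) for all other SOX6 peaks. The lowest score quintile of the SOX6 list, with scores up to 60.9, held 56.7% (54.6% to 58.8%) of the sites and the highest quintile 2.32% (1.76% to 3.05%). Unmarked sites made up 31.0% of the SOX6 peaks of the lowest quintile, 14.1% of the next, 5.43% of the middle, 2.89% of the fourth and 1.27% of the highest. Scores of 100 or more were held by 266 of the sites (12.6%), and by 56.9% of the other SOX6 peaks.

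Width followed the same order. The median was 255 bp (quartiles 203 and 368 bp) at unmarked sites and 490 bp (344 and 686 bp) at other SOX6 peaks. The sites were also narrower than other SOX6 peaks of their own score quintile, with medians of 227 bp against 324 bp in the lowest and 496 bp against 757.5 bp in the highest. A narrow peak has fewer bases with which to meet another list, so width is partly fixed by the choice of the sites.

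**Figure D1:**
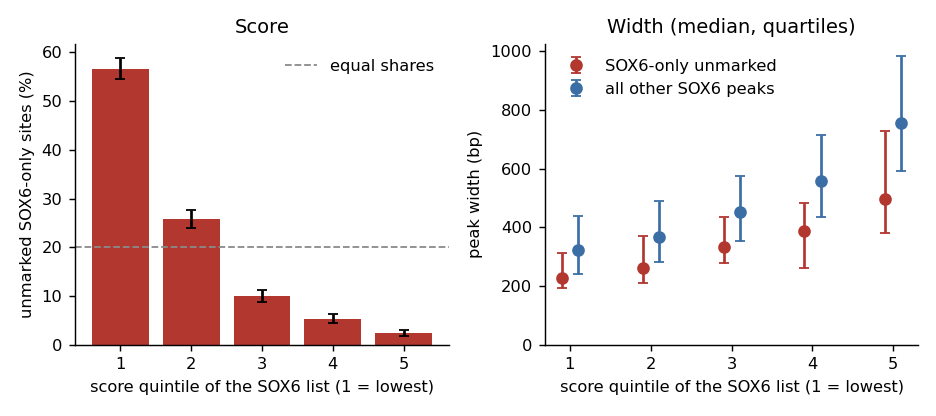
Left, share of the 2115 SOX6-only unmarked sites (%) in each score quintile of the SOX6 list, with 95% Wilson intervals and a dashed line at equal shares; right, median peak width (bp) with quartiles in each quintile for the sites and for all other SOX6 peaks. The share of sites runs from 56.7% in the lowest quintile to 2.32% in the highest, and the sites have the lower median width in each quintile.

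Of the 10 unmarked sites with the highest scores, 6 lay in 1 tract of chromosome 8. The tract runs from 6266840 to 6288998 and contains 14 of the sites. Its highest peaks, from 6281130 to 6282406 and from 6286241 to 6288998, had a score of 3100. This value is shared by 26 peaks of the SOX6 list, with 4 above it, and recurs in the other lists, so it does not order these peaks among themselves. The next in the tract had scores of 2028 (6282469 to 6282989), 1884 (6284829 to 6285110), 1778 (6277567 to 6279691) and 1230 (6285551 to 6285932). The lowest of its 14 sites had a score of 111, and the median was 649, against 58.7 for the sites outside it. Of the 20 unmarked sites with scores of 500 or more, 9 lay here, and of the 266 with 100 or more, 14.

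SOX6 peaks followed each other closely in the tract. Its 15 SOX6 peaks took up 74.3% of 22159 bp, with gaps of 46 to 1481 bp between neighbours. The remaining SOX6 peak, from 6275070 to 6277496 with a score of 2281, met a SOX9 peak with a score of 61.4 and an H3K4me1 peak with a score of 53.6. The median score was 90.3 in the SOX9 list and 155 in the H3K4me1 list. No H3K27ac, H3K4me3 or H3K9me3 peak lay in the tract. The nearest H3K27ac and H3K4me3 peaks began 12871 and 12850 bp beyond its end, and an H3K9me3 peak lay 15922 bp before its start.

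No other run in the SOX6 list held as many peaks. With peaks joined where they were at most 1 kb apart, the list formed 17036 runs, of which 13 held 5 or more peaks. The longest had 12 peaks over 16747 bp within this tract, and peaks of the other 5 lists covered 7.75% of it. The next, on chromosome 7 from 44786510 to 44796096, had 8 peaks and was covered completely by other lists. In the 6 runs after that the cover was 96.2% to 100%, and one of these, with 5 peaks, lay on chromosome 8 as well, from 6190831 to 6198781.

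Counts of SOX6 peaks were high around the tract as well, though the tract supplied part of them. Among 2893 windows of 1 Mb, the window of chromosome 8 from 6000001 to 7000000 held 24 unmarked sites, 14 of them in the tract. The next window along held 8, and these were the highest counts. The median window held 0. The first window had 52 SOX6 peaks in all, 15 of them in the tract, and ranked 2 of 2893. Its 10 SOX9 peaks ranked 440, its 16 H3K27ac peaks 1110 and its 28 H3K4me1 peaks 1189. The 16 SOX6 peaks of the next window ranked 312. The median window of chromosome 8 had 5 SOX6, 4 SOX9, 14.5 H3K27ac and 24.5 H3K4me1 peaks. So the SOX6 list stood high in the first window and the other lists did not stand out to the same degree. The input reads were deposited only as totals per chromosome, so the input over the tract was not measured here.

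**Figure D2:**
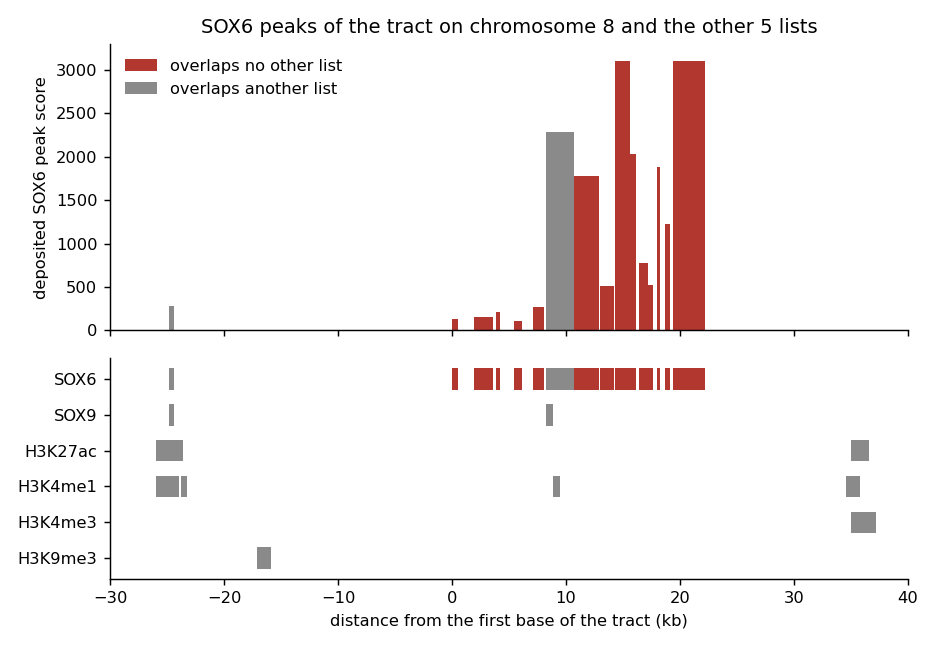
Top, deposited score of each SOX6 peak, and bottom, position of the peaks of all 6 lists, by distance in kb from the first base of the tract on chromosome 8. The 14 SOX6-only unmarked sites are red and peaks that overlap another list, or belong to one, are grey; between 0 and 22.2 kb the other lists hold only 1 SOX9 and 1 H3K4me1 peak.

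Outside this tract the highest-scoring site lay on chromosome 16 from 25862802 to 25864221, with a score of 2158. It was one of 3 unmarked sites within 3041 bp, 40368 bp from the nearest active mark and 246466 bp from SOX9. A site on chromosome 5 from 110927968 to 110929248 had a score of 1804 and stood close to other peaks, 451 bp from SOX9 and 2221 bp from H3K4me3. The others of the 10 highest scores were on chromosome 1, from 93369864 to 93370646 (score 1023, 96215 bp from an active mark and 2865 bp from H3K9me3) and from 256689952 to 256690614 (score 846, 19217 bp from H3K4me1). High scores occurred both beside active chromatin and far from it.

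Elsewhere few unmarked sites lay close to one another. Joining sites no more than 10 kb apart left 2014 of them (95.2%) alone, and formed 36 pairs, 5 groups of 3 and the tract of 14. A set of 2115 sites over 2902 Mb would leave most alone at this distance even if spread at random. No background share was computed, so the 95.2% is not read as a trait of the sites. The groups of 3 with the highest summed scores, after the tract, were those on chromosome 16 from 25861181 to 25864221 and on chromosome 4 from 4122735 to 4123918. The second lay 48069 bp from any active mark and 544 bp from an H3K9me3 peak. At 78.1% of the sites the nearest SOX6 peak was one that met another list. Such peaks were 17240 of the 19355 in the SOX6 list, so the 78.1% is not read as nearness to them.

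The sites lay nearer to active marks than most of the genome outside the peak lists. The median gap from the edge of a site to the nearest H3K27ac, H3K4me1 or H3K4me3 peak was 12800 bp (95% interval of the median 11465 to 13591 bp, quartiles 3256.5 and 40283 bp). Within 10 kb of an active mark lay 945 sites, or 44.7% (42.6% to 46.8%), while 27.4% of all positions at which a peak of 255 bp would meet none of the 5 lists lay as close. At 1 kb the shares were 12.2% of sites (10.9% to 13.7%) and 4.71% of positions, at 5 kb 30.9% and 17.2%, at 50 kb 79.1% and 57.6%, and at 100 kb 87.7% and 70.0%. Gaps of the genome assembly were not removed from the positions, and their part in this difference was not tested. SOX9-only unmarked sites were a little farther from active marks, with a median of 16005.5 bp (14408 to 18129 bp) and 39.8% within 10 kb, 4.87 percentage points fewer (95% interval 1.67 to 8.03).

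**Figure D3:**
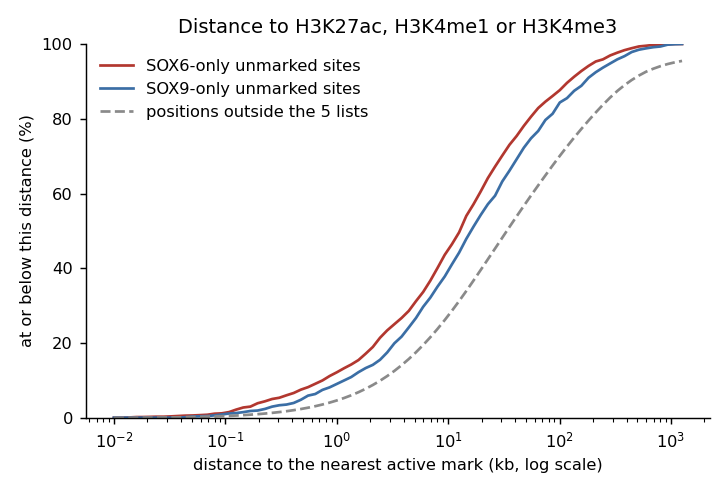
Cumulative share (%) of SOX6-only unmarked sites, SOX9-only unmarked sites and positions outside the 5 lists by distance to the nearest H3K27ac, H3K4me1 or H3K4me3 peak (kb, log scale). The SOX6-only curve lies to the left, at 44.7% by 10 kb, against 39.8% for SOX9-only sites and 27.4% for positions. The positions match the rule and median width of the SOX6-only sites, and no matching curve is given for SOX9-only sites.

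H3K4me1 was the usual neighbour. The nearest active peak was of H3K4me1 at 69.2% of the sites, of H3K27ac at 339 sites and of H3K4me3 at 304. The H3K4me1 list is also the longest, at 92421 peaks. Within 10 kb, H3K4me1 was found for 41.7% of sites (24.8% of positions), H3K27ac for 26.8% (16.4%) and H3K4me3 for 17.5% (11.1%). Of the nearest active peaks, 60.9% (58.8% to 63.0%) had a score below the median of their own list. An active mark stood within 10 kb on both sides of 293 sites (13.9%). Neither share was computed for positions, so neither is read as a trait of the sites.

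H3K9me3 was also nearer to the sites than to positions outside the lists. It had a median distance of 29564 bp (27519 to 31775 bp) and lay within 10 kb of 544 sites, 25.7% (23.9% to 27.6%) against 16.7% of positions. It was nearer than any active mark at 710 sites (33.6%), a share that was not computed for positions. SOX6-only sites with H3K4me1 as their single mark had H3K9me3 within 10 kb in 25.5%, a difference of 0.239 points (-2.60 to 3.05). H3K27ac was within 10 kb of 26.8% of unmarked sites and 46.4% of sites with H3K4me1 alone, and H3K4me3 of 17.5% of unmarked sites and 25.7% of sites with H3K4me1 alone.

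The median score changed little with distance, but high scores were more frequent within 1 kb of an active mark. Sites up to 1 kb from an active mark had a median score of 60.5, and in the 5 bins beyond, up to over 100 kb, it stayed between 58.4 and 58.8. Scores of 100 or more were held by 19.8% of the 258 nearest sites and by 9.97% to 14.3% of sites in the bins beyond, with 10.7% of the 261 sites beyond 100 kb. Of these distant sites, 85 were more than 100 kb from any other peak of the 6 lists. No such share was computed for positions, so the count is not read as a trait of the sites. The 5 farthest lay 795059 to 1063453 bp from an active mark, at chr10:26989097-26989339, chr18:19335897-19336098, chr17:40901063-40901325, chr15:20842047-20842266 and chr20:54636917-54637114. Their scores were 53.1 to 70.8, all below the SOX6 median of 104.

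SOX9 was distant from most unmarked sites. The median distance to a SOX9 peak was 69073 bp (62890 to 75932 bp), compared with 41181 bp for SOX6-only sites with H3K4me1 alone and 13541 bp for acetylated SOX6-only sites without H3K4me3, classes that lack a SOX9 overlap as well. SOX9 lay within 10 kb of 258 unmarked sites, or 12.2% (10.9% to 13.7%; 6.28% of positions), of 18.8% of those with H3K4me1 alone and of 43.8% of acetylated ones. Within score quintiles of the SOX6 list, unmarked sites were below those with H3K4me1 alone in the lower 3, at 11.5% against 20.5%, 11.2% against 18.97% and 10.9% against 18.7% from the lowest up. The order was the other way in the fourth quintile, at 20.5% of 112 unmarked sites (17.6% without the tract of chromosome 8) against 16.4% of those with H3K4me1 alone, and in the highest, at 26.5% of unmarked sites (13 of 49) against 13.0% of those with H3K4me1 alone. Without the tract 5 of 40 unmarked sites in the highest quintile had SOX9 within 10 kb, and the order there no longer turned. Acetylated sites had the highest share in each quintile, from 37.6% to 48.6%. A SOX9 peak stood within 1 kb of 22 sites (1.04%; 0.305% of positions).

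Other SOX6 peaks were sparser around the sites than around the rest of the SOX6 list. The nearest SOX6 peak was 49514 bp away at the median (45607 to 55668 bp), against 10656 bp for all other SOX6 peaks. A SOX6 peak lay within 10 kb of 18.1% of unmarked sites and 49.0% of the others, a difference of -30.9 points (-32.6 to -29.0). Against SOX9-only unmarked sites the order was the other way. Their nearest other SOX9 peak was 79857 bp away at the median, and 8.90% had one within 10 kb, 9.21 points fewer (7.05 to 11.3). The SOX9 list is shorter, at 14782 peaks against 19355. SOX9-only unmarked sites were rarely close. Of the 2115 sites, 32, or 1.51% (1.07% to 2.13%), had one within 10 kb, where 1.11% of positions did.

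The density of unmarked sites was also set beside the amount of active chromatin around them. Most other SOX6 peaks are in their class because they meet an active mark, and unmarked sites because they do not, so the contrast between these classes below is largely fixed by the rule. Windows of 1 Mb were ordered by the length under active marks and divided into quintiles. Gaps of the genome assembly were not removed from the windows, and counts were not adjusted for input. The part of either in the differences below was not tested. From the least to the most active quintile, sites numbered 0.275, 0.584, 0.796, 0.895 and 1.10 per Mb. Other SOX6 peaks numbered 0.149, 1.45, 3.99, 8.01 and 16.1 per Mb. The most active windows held 3.98 times as many unmarked sites as the least active, and 108 times as many other SOX6 peaks. For SOX9-only unmarked sites the ratio was 2.76. In the least active quintile unmarked sites made up 64.9% of all SOX6 peaks, and in the most active 6.36%.

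**Figure D4:**
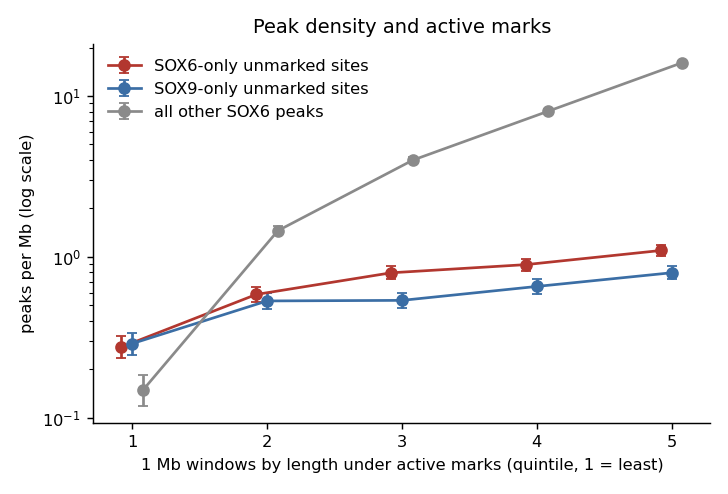
Peaks per Mb (log scale) with 95% Poisson intervals in 1 Mb windows grouped by the length under active marks, from the least (1) to the most (5), for SOX6-only unmarked sites, SOX9-only unmarked sites and all other SOX6 peaks. Unmarked SOX6 sites run from 0.275 to 1.10 per Mb while other SOX6 peaks run from 0.149 to 16.1.

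Over the autosomes the density of unmarked sites moved with the input. The 20 autosomes held 2075 of the sites, at 0.398 (chromosome 20) to 1.32 (chromosome 7) per Mb, a range of 3.31-fold. Input reads aligned without a mismatch were counted per Mb, divided by the median chromosome and averaged over the 4 inputs. Chromosomes 16, 9 and 7 had the most input, at 2.05, 2.03 and 1.91, and also high densities, at 1.11, 1.21 and 1.32 sites per Mb. Pearson's r was 0.854 and Spearman's rho 0.758 over 20 autosomes, and r was 0.797 without chromosomes 16 and 9. For other SOX6 peaks r was 0.672 and rho 0.800, so the measures do not put the SOX6 classes in the same order. SOX9-only unmarked sites had higher values than the SOX6-only ones by both, r 0.895 and rho 0.917, so the link with input was not particular to the SOX6 sites. The values share their libraries and chromosome lengths, and length under active marks moved with density as well (r 0.693 for unmarked sites, 0.949 for other SOX6 peaks).

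**Figure D5:**
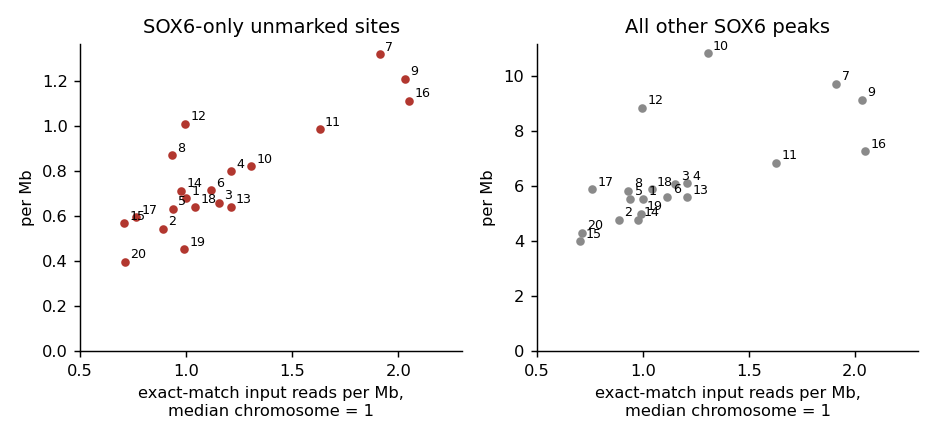
Density per Mb of SOX6-only unmarked sites (left) and all other SOX6 peaks (right) on each of the 20 autosomes against exact-match input reads per Mb, as the mean of 4 inputs with the median chromosome at 1; numbers name the chromosomes. Chromosomes 7, 9 and 16 stand at the upper right for unmarked sites, and chromosome 10, at 10.8 per Mb, stands highest for the others.

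Per input read the spread was smaller. The autosomes together held 63.9 unmarked sites per 1000000 exact-match reads of the SOX6 input, and the exact Poisson intervals of 17 of 20 autosomes included this value. The coefficient of variation between autosomes was 32.3% per Mb and 19.1% by this rate. On the autosomes other SOX6 peaks ranged from 3.99 (chromosome 15) to 10.8 (chromosome 10) per Mb. Per 1000000 reads they ranged from 353 (chromosome 16) to 830 (chromosome 12). Among autosomes the highest rate of unmarked sites was on chromosome 12, at 94.9 (71.5 to 124) from 55 sites. The lowest was on chromosome 19, at 44.2 (30.4 to 62.1) from 33 sites. Chromosome 8 had 91.4 (75.5 to 110) with the tract and 80.3 (65.4 to 97.6) without it. Chromosome 10 had the highest density of other SOX6 peaks, 10.8 per Mb, and the smallest share of unmarked ones among autosomes, 7.05% (5.78% to 8.57%), but 60.3 (48.6 to 74.0) unmarked sites per 1000000 reads, against 63.9 for the autosomes together. On X 40 of 231 SOX6 peaks were unmarked, 17.3% (13.0% to 22.7%) against 10.9% on the autosomes, a difference of 6.47 points (2.11 to 11.9). X nonetheless had the lowest rates of unmarked sites of any chromosome, at 0.259 per Mb and 43.0 (30.7 to 58.6) per 1000000 reads. Other SOX6 peaks were also sparsest there, at 1.24 per Mb, and active marks covered 1.32% of its length.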

How the data were processed

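Each of the 6 immunoprecipitations comes as a list of peaks with start and end in bp, a score per peak that the authors deposited and peak names that begin with MACS, a program for finding peaks. Its version and control sample, like the aligner, were not given in the sources used here. CASAVA 1.8 and the build rn5 come from the submitters' processing notes. Starts were read as counted from 0 and are printed counting from 1. The inputs are raw read counts per chromosome, by strand and mismatches, per the file headers. They held 36873004 to 131858579 reads, of which 53.4% to 53.5% aligned, and 15631865 to 56256688 aligned exactly.

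A SOX6 peak belonged to the set where it shared less than 1 bp with each of 5 lists. Distances are gaps between edges. The last peak end over all lists stood in for chromosome length (2902 Mb in all). Positions are the 2682 Mb at which the centre of a 255 bp peak would meet none of the 5 lists. Windows of 1 Mb, score quintiles and joins were computed in Python 3.11.15 with pandas 2.3.3 and scipy 1.17.1. Interval routines were tested on simulated data. Named regions followed a rule on rank: the 10 highest scores, the 5 farthest from active marks, the 5 on either side of the rule, the 3 largest groups (joined slightly wider than the 10 kb printed) and the autosomes at the ends of the range. The sites, classes and measures were chosen with earlier results of these data known. Sequence and genes of rn5 were not used here.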

Additional observations from a re-analysis of the deposited data

Results flagged for a closer look

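Among the 4 inputs, exact-match reads per Mb of chromosome 7 relative to the median chromosome were 1.85 in the SOX6 input, apart from 1.93 in each of the SOX9, H3K27ac and methylation-mark inputs. This came from 7 such comparisons, and chance sets apart about 1 in 20. It was not particular to chromosome 7. The SOX6 input was also lowest on chromosome 9 (1.94 against 2.05 to 2.08) and chromosome 16 (1.97 against 2.07 to 2.09). It was lowest by less on chromosomes 8 and 19 and highest on chromosome 12, and none of these was far enough apart to be flagged. With the SOX6 input alone the correlation of unmarked-site density with input over the autosomes was 0.863, and with the other inputs 0.848 to 0.853.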

How the results depend on the processing

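The number of unmarked sites depended most on the score thresholds. With the 5 other lists restricted to peaks at or above their median score there were 3517 sites, with a median distance to an active mark of 21049 bp, 33.6% within 10 kb, a median score of 63.5 and a median width of 291 bp. With SOX6 peaks restricted in the same way there were 244 sites, with 10629.5 bp, 48.4%, a score of 153 and a width of 388.5 bp. When a peak of another list within 1 kb counted as overlap, the median distance was 16377 bp and the share within 10 kb 36.7%. The correlation over autosomes was 0.725 with all aligned reads, 0.797 without the 2 autosomes of most extreme input, 0.758 by rank and 0.381 for sites per 100 other SOX6 peaks. The remaining 28 of 44 alternatives stayed within the interval of the value reported (counts of sites within 1.5 times, correlations within the range from leaving out each autosome), among them overlap by the centre, autosomes alone, distances between centres, peaks set to 1 width, each input alone and, chosen after seeing the data, leaving out the tract of chromosome 8. No paired analysis was possible because each antibody has 1 library. Read depth of the immunoprecipitations was not used here, so whether it limits sites near the lowest deposited score was not tested.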
